A study of Mus musculus with 8 samples.

Results

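The genes described here are 8 markers of muscle stem cells and of muscle formation, measured in the whole mouse esophagus: the satellite cell factor Pax7, the myogenic factors Myf5, Myod1, Myog and Myf6, their partner Mef2c, and the embryonic and perinatal myosin heavy chains Myh3 and Myh8. They were taken as a fixed list of symbols, and all 8 were found among the 49315 gene identifiers of the deposited tables. Wild-type (WT) mice drank untreated water (5 libraries, controls) or water to which 0.5% SDS, the detergent sodium dodecyl sulfate, had been added (3 libraries), and the esophagus was taken at day 14. The sources used here do not state the age, sex or strain of the mice, and the extraction protocol speaks of cell pellets where the treatment protocol speaks of homogenised whole organ. The series' design text counts mice, while no label ties a library to its own animal. The p-values therefore measure only the spread between these libraries, which may be technical.

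The muscle coat of the mouse esophagus is largely striated, and in adult striated muscle the repair cells are satellite cells, which carry Pax7. On activation they express Myf5 and Myod1, basic helix-loop-helix factors that bind short DNA motifs called E-boxes and commit the cell to the muscle lineage. Myog then drives differentiation, Myf6 is kept in mature fibres, and Mef2c, a MADS-box factor, acts beside them at muscle genes. Myh3 and Myh8 are the myosins of developing and regenerating fibres, which adult myosins replace in most limb muscles.

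Reads of poly(A)-selected RNA were counted per gene, with 22033866 to 29802362 counts in a library. Levels are given as CPM, the counts scaled to TMM-adjusted library size, and as CPM per kilobase of counted exon (FPKM) wherever levels of different genes are compared. Some libraries stood apart. Control library 4 had the highest summed level of 10 adipocyte markers, 6217 CPM against 241 to 1627 CPM in the other controls, and SDS library 3 had the lowest summed level of 30 adult striated muscle genes, 22499 CPM. In whole tissue, fewer cells of a type and less RNA per cell cannot be told apart.

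On mm10, Pax7 (ENSMUSG00000028736) lies on chromosome 4 from 139737062 to 139833528, Myod1 (ENSMUSG00000009471) on chromosome 7 from 46376474 to 46379099, Myog (ENSMUSG00000026459) on chromosome 1 from 134289989 to 134292548 and Mef2c (ENSMUSG00000005583) on chromosome 13 from 83504034 to 83667080. Myf5 (ENSMUSG00000000435; chromosome 10, 107482908 to 107486134) and Myf6 (ENSMUSG00000035923; chromosome 10, 107492860 to 107494729) are neighbours with 6725 bases between them in the deposited models. Myh3 (ENSMUSG00000020908; chromosome 11, 67078300 to 67102291) and Myh8 (ENSMUSG00000055775; chromosome 11, 67277124 to 67308634) lie in the myosin heavy chain cluster, 174832 bases apart. All 8 are protein-coding and were counted over exons, and none shares an exonic base with another gene in GENCODE M21.

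The promoters of Myog, Myh3 and Myh8 are shown because these genes are the differentiation factor and the developmental myosins whose levels the results turn on. Each is the 250 bases before the RefSeq transcription start on GRCm38.p6, plus strand, from chr1:134289754-134290003, chr11:67078050-67078299 and chr11:67276874-67277123. The counted Myog gene starts earlier, at 134289989, so the last bases of its window, with the E-box nearest the RefSeq start, lie in that gene. Capitals mark E-boxes (CANNTG, on both strands) and the MEF2 site, the motif bound by Mef2c and its relatives. The MEF2 site was searched as YTAWWWWTAR on both strands, where Y is C or T, W is A or T and R is A or G. Near matches were left unmarked, such as ctatatttat in the Myog window, which ends in T. RefSeq windows were found for 6 of the 8 genes, all but Myod1 and Myf6, with 3 windows for Mef2c.
Myog: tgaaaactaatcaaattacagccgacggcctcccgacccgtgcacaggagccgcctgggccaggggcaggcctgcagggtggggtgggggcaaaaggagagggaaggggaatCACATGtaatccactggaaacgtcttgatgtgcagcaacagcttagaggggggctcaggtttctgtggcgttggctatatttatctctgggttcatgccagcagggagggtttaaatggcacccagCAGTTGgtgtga
Myh3: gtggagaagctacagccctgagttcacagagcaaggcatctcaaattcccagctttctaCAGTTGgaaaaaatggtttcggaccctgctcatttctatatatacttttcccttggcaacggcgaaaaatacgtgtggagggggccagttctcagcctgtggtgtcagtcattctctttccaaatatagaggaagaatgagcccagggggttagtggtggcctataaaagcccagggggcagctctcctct
Myh8: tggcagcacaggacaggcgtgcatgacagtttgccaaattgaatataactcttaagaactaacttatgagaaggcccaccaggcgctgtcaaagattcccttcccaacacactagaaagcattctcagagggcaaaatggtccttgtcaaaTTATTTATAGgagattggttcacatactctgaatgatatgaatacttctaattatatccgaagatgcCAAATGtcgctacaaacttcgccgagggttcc
The Myog window holds 2 E-boxes and those of Myh3 and Myh8 hold 1 each; 66.2% of 32841 promoter windows of this length hold at least 1. The MEF2 site in the Myh8 window, which overlaps no E-box, is of a kind found in 2.92% of these windows. The windows of Pax7 and Myf5 held neither motif, which says only that these letters are not in those 250 bases. The Pax7 window lies wholly inside the counted gene and not before it. A match is a description of the letters and not a binding site.

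In control esophagus the 8 genes covered a wide span of levels per kilobase. Myh8 was the highest at 772 ± 95.9 FPKM (SD, n = 5), followed by Myf6 at 29.2 ± 4.56, Mef2c at 16.2 ± 3.5, Myog at 6.48 ± 1.88, Myod1 at 4.20 ± 1.44, Myf5 at 2.28 ± 0.253, Myh3 at 1.18 ± 1.08 and Pax7 at 0.349 ± 0.0681 FPKM. Myog and Myod1 had overlapping ranges, although Myog was the higher in 5 of 5 controls, and Myh3 overlapped both Myf5 and Pax7. The order of Myf6 and Mef2c rests on the length used: Mef2c was counted over 15715 bases of exon, and over its longest GENCODE M21 coding transcript (6277 bases) Myf6 lay at 0.721 ± 0.0641 (SD, n = 5) of the Mef2c level, against 1.83 ± 0.162 with the counted length.

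Myh8, named for the perinatal stage, ranked 6th of 17179 tested genes by mean CPM in the controls. Its level was close to that of the adult fast myosin Myh1, at 828 ± 118 FPKM (SD, n = 5). Per kilobase of counted exon Myh8 made up 42.8% ± 1.14 (SD, n = 5) of the sarcomeric myosin heavy chain signal of 10 genes in controls, and Myh1 46.4% ± 7.61. Myh8 was counted over 11772 bases of exon, while its longest GENCODE M21 coding transcript has 6149 bases, so the length used sets its FPKM. With transcript lengths Myh8 lay at 1.73 ± 0.310 (SD, n = 5) of the Myh1 level and was higher in 5 of 5 controls, against 0.945 ± 0.169 and 1 of 5 with counted lengths. Myosin heavy chains are close copies: 16.7% of the 50-base stretches of Myh8 transcripts also occur in another of these myosins, most of them in Myh2 (9.20%), Myh1 (7.45%) and Myh4 (7.26%), and 4.76% of those of Myh3. The sources used here do not state how reads with several matches were treated, so the division among these paralogs is uncertain to that extent.

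The comparison of SDS with control asked what the detergent does to the esophagus. All 8 genes had a lower mean in SDS, where 50.7% of all tested genes had a log2 fold change below 0. By edgeR's quasi-likelihood test, adjusted after Benjamini and Hochberg over 17179 genes, 0 of the 8 passed the threshold of 0.05, as 1.05% of all tested genes did and 0.425% did as lower in SDS. Myf5 and Myh8 came closest. In this fit 4 of the 8 had an unadjusted p under 0.05 and were lower (Myf5, Myh8, Myf6 and Mef2c), and the same 4 had group ranges that did not overlap. Among all tested genes 8.53% were lower with such a p, and 6.89% were lower with ranges that did not overlap. The median log2 fold change of the 8 was -0.73, against -0.005 over all tested genes. Other tools differed in their calls: DESeq2 passed 4 of the 8 (Myf5, Myh8, Myf6 and Mef2c, adjusted p from 7.2e-06 to 0.0307; 4.34% of all genes passed as lower), limma-voom with sample quality weights passed 3 (Myf5, Myh8 and Myf6; 4.76% of all genes), and limma-voom without them passed 0 (0.373% of all genes).

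**Figure D1:**
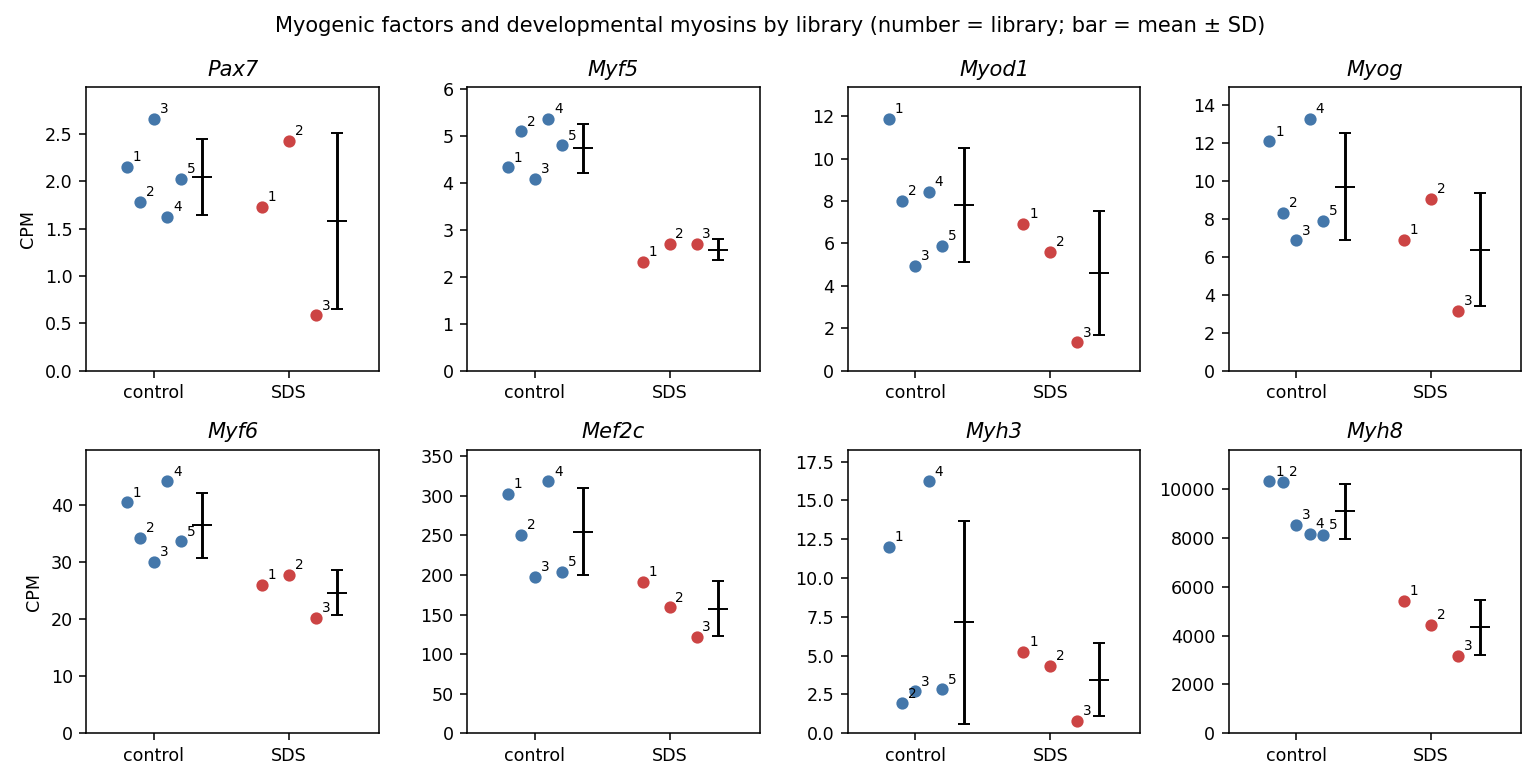
Level of each of the 8 genes (CPM, each panel from 0) in the 5 control and 3 SDS libraries; points are libraries with their number, bars the mean ± SD. SDS libraries lie below every control for Myf5, Myf6, Mef2c and Myh8, and overlap the controls for Pax7, Myod1, Myog and Myh3.

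Pax7, the factor that maintains satellite cells, measured 2.15, 1.78, 2.66, 1.62 and 2.02 CPM in control libraries 1 to 5 and 1.73, 2.42 and 0.584 CPM in SDS libraries 1 to 3. SDS libraries 1 and 2 lay inside the control range and SDS library 3 below it. The low value rests on 14 counts, with an exact 95% Poisson interval of 0.319 to 0.980 CPM, which covers counting error only and ends below the lowest control. The log2 fold change was -0.37 ± 0.41 (SE), with an edgeR adjusted p of 0.684, and without SDS library 3 it was 0.03.

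Myf5, the earliest of the myogenic factors, measured 4.33, 5.10, 4.10, 5.37 and 4.81 CPM in controls and 2.32, 2.71 and 2.71 CPM in SDS. The groups did not overlap, and the spread within each was narrow: 4.74 ± 0.527 (SD, n = 5) against 2.58 ± 0.225 CPM (SD, n = 3). The log2 fold change of -0.88 ± 0.18 (SE), a level 1.84-fold lower, had an edgeR adjusted p of 0.0550, just outside the threshold. Of the 8 genes, Myf5 was the one whose SDS library 3 was not the lowest SDS library.

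Its neighbour Myf6, the factor of mature fibres, measured 40.4, 34.2, 30.02, 44.1 and 33.6 CPM in controls and 25.9, 27.8 and 20.1 CPM in SDS. All 3 SDS libraries lay below the lowest control, by a small margin for SDS library 2. The log2 fold change was -0.57 ± 0.16 (SE, edgeR adjusted p = 0.113). The ratio of Myf6 to Myf5 was 7.71 ± 1.07 (SD, n = 5) in controls and 9.63 ± 1.96 (SD, n = 3) in SDS, with overlapping groups (two-sided exact permutation p = 0.143; the smallest p this design can give is 0.0357).

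Myod1, the determination factor of activated satellite cells, measured 11.9, 7.99, 4.95, 8.41 and 5.87 CPM in controls and 6.92, 5.59 and 1.33 CPM in SDS. SDS libraries 1 and 2 lay among the controls, while SDS library 3 lay far below. Myog, the differentiation factor, measured 12.1, 8.33, 6.87, 13.3 and 7.89 CPM in controls and 6.88, 9.07 and 3.17 CPM in SDS, with the same library lowest. The log2 fold changes were -0.76 ± 0.49 for Myod1 (SE, edgeR adjusted p = 0.463) and -0.60 ± 0.36 for Myog (SE, edgeR adjusted p = 0.416), and without SDS library 3 they were -0.32 and -0.27.

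The 2 factors varied together from library to library. Their log2 CPM correlated with a Pearson r of 0.92 over the 8 libraries, which share depth scaling and treatment group, so the value is a description. The ratio of Myog to Myod1 was 1.27 ± 0.240 (SD, n = 5) in controls and 1.66 ± 0.691 (SD, n = 3) in SDS (two-sided exact permutation p = 0.357). The 4 ratios tested, these and the 2 of myosins given further on, had p-values adjusted by Benjamini-Hochberg of at least 0.143.

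Mef2c, which is also expressed in smooth muscle, endothelium, B cells and macrophages, measured 302, 250, 198, 318 and 204 CPM in controls and 191, 159 and 122 CPM in SDS. The groups did not overlap, with SDS library 1 just under control library 3. The log2 fold change was -0.69 ± 0.22 (SE, edgeR adjusted p = 0.143). The cell types that share Mef2c did not move as 1 group: the median log2 fold change was -0.01 over 10 endothelial markers, 2.44 over 5 tested B cell markers and 1.16 over 10 macrophage and dendritic cell markers, and -0.71 over 10 smooth muscle markers. The summed smooth muscle level was 3115 to 8558 CPM in controls and 2026 to 4353 CPM in SDS, and the summed B cell level 0.953 to 2.10 CPM in controls and 8.61 to 14.3 CPM in SDS. Of the B cell markers, 2 of 5 tested rose in edgeR, 4 with DESeq2, 2 with limma-voom and quality weights and 1 without them. The part of these cells in the Mef2c value was not tested.

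Myh8 gave the steadiest difference of the myosins. It measured 10323, 10311, 8526, 8157 and 8142 CPM in controls and 5425, 4431 and 3174 CPM in SDS, and every SDS library lay well below every control. The log2 fold change was -1.07 ± 0.23 (SE), a level 2.09-fold lower, with an edgeR adjusted p of 0.0596. The adult myosin Myh1 measured 6452, 4523, 4742, 5322 and 5267 CPM in controls and 4370, 4195 and 2086 CPM in SDS, with a log2 fold change of -0.57 ± 0.27 (SE, edgeR adjusted p = 0.300).

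The ratio of Myh8 to Myh1 was 1.6, 2.28, 1.80, 1.53 and 1.55 in controls and 1.24, 1.06 and 1.52 in SDS. The groups did not overlap, by a margin of 0.011 between SDS library 3 and control library 4. The difference in mean log2 ratio was -0.46, with a two-sided exact permutation p of 0.0357, the smallest this design can give; this ratio was chosen after its values were seen. Adjusted over the 4 ratios the p was 0.143.

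Myh3, the embryonic myosin, was the most variable of the 8. It measured 12.01, 1.93, 2.70, 16.2 and 2.82 CPM in controls, an 8.42-fold span within 1 group, and 5.23, 4.36 and 0.792 CPM in SDS. SDS libraries 1 and 2 lay between the low and the high controls, and SDS library 3, with 19 counts, lay below all. The log2 fold change was -1.05 ± 0.86 (SE, edgeR adjusted p = 0.570), and it was -0.49 without control library 4 and -1.46 without SDS library 1. The ratio of Myh3 to Myh8 also overlapped between the groups (two-sided exact permutation p = 0.893).

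The 2 controls with high Myh3 were also those with the highest Myh2 and Myh7, the adult IIa and slow myosins. These controls, 1 and 4, also had the highest summed smooth muscle level, 5481 and 8558 CPM against 3115 to 4104 CPM in the others. Their summed adipocyte level was highest too, 1627 and 6217 CPM against 241 to 1001 CPM. The part of tissue composition in these myosin values was not tested. Myh2 measured 336, 18.5, 12.7, 680 and 34.4 CPM in controls and 171, 12.1 and 17.8 CPM in SDS, and Myh7 5.02, 0.433, 0.295, 10.5 and 0.648 CPM in controls and 8.02, 0.492 and 1.42 CPM in SDS. The fast myosin Myh4 ran otherwise, with 3223 CPM in control library 2 and 42.4 CPM in control library 4. The log2 fold changes of Myh2 (-1.69 ± 1.5), Myh4 (-2.33 ± 1.08), Myh7 (-0.04 ± 1.25) and Myh13 (-1.26 ± 0.53; all SE), an extraocular myosin, did not pass (edgeR adjusted p of 0.254 or more).

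**Figure D2:**
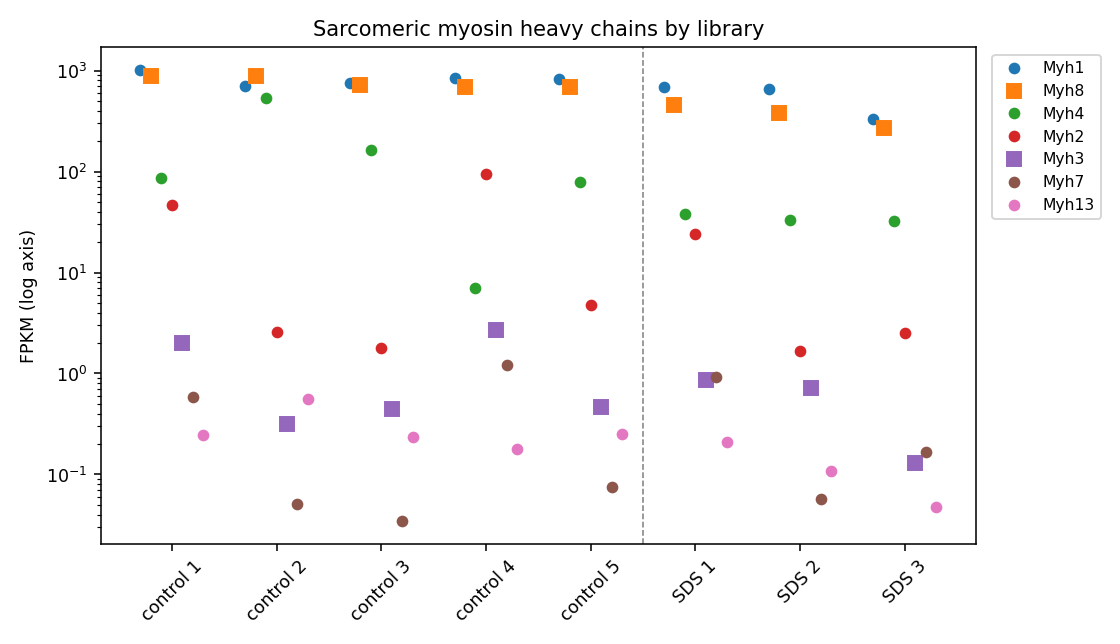
FPKM (log axis) of 7 sarcomeric myosin heavy chains in each library; squares are the developmental myosins Myh8 and Myh3, circles the others, and the dashed line separates control from SDS. Myh8 and Myh1 lie together at the top, while Myh3 is highest in control libraries 1 and 4, where Myh2 is also highest.

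Of 30 adult striated muscle genes, 26 had a log2 fold change below 0 and 4 above, with a median of -0.76, beside -0.73 for the 8 myogenic genes. In edgeR 0 of the 30 passed, 20 were lower at an unadjusted p under 0.05, and 18 were lower with ranges that did not overlap. DESeq2 passed 15 as lower, limma-voom with quality weights 5 and limma-voom without them 0. The skeletal actin Acta1 had a log2 fold change of -0.78 ± 0.33 and the muscle creatine kinase Ckm of -0.90 ± 0.23 (SE). Set against the controls' mean log2 CPM, the 30 genes together stood at -0.12 in SDS library 1, at -0.53 in library 2 and at -1.2 in library 3, with an SD of 0.32 among controls. By this mean SDS library 1 lay inside the control range, above control libraries 3 (-0.37) and 5 (-0.28). By summed CPM it lay below every control, at 40564 CPM. The summed range was 46776 to 64178 CPM in controls and 22499 to 40564 CPM in SDS. The 18 genes without overlap were also lower in SDS library 1 than in every control. The part of the 30 genes in the values of the 8 genes was not tested beyond the rescaling given next.

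**Figure D3:**
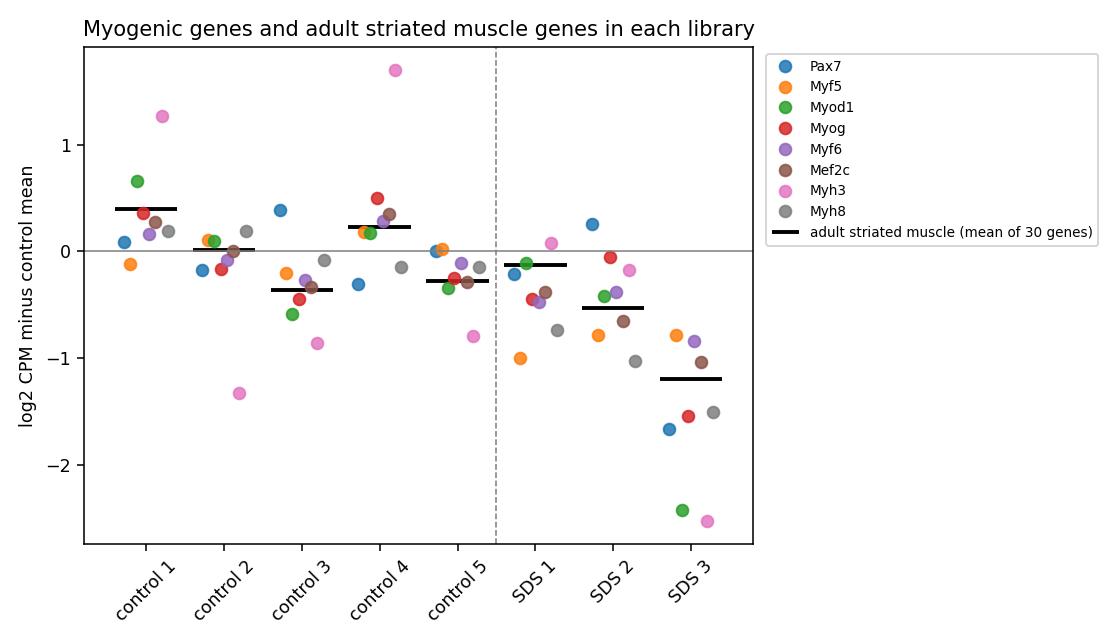
Log2 CPM of each of the 8 genes minus its control mean, by library; the black dash is the mean over 30 adult striated muscle genes. The dash lies at -1.2 in SDS library 3, where all 8 genes lie below the control mean, from -0.78 for Myf5 to -2.53 for Myh3.

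With libraries scaled to those 30 muscle genes, so that each value is read relative to striated muscle, the log2 fold changes of the 8 genes lay between -0.33 and 0.31. Myh8 stood at -0.33 ± 0.27, Myh3 at -0.31 ± 0.72, Myf5 at -0.08 ± 0.28, Myod1 at -0.06 ± 0.36, Mef2c at 0.07 ± 0.21, Myog at 0.14 ± 0.29, Myf6 at 0.21 ± 0.20 and Pax7 at 0.31 ± 0.40 (log2 fold change, SE). None passed (lowest edgeR adjusted p = 0.296), and 4 of 8 lay on each side of 0. This scaling moves the median of all tested genes to 0.78, so 56.1% of them passed. Each of the 8 genes stayed below that median, as in the TMM fit. Rescaling shifts all genes nearly alike, so this is not a second result.

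**Figure D4:**
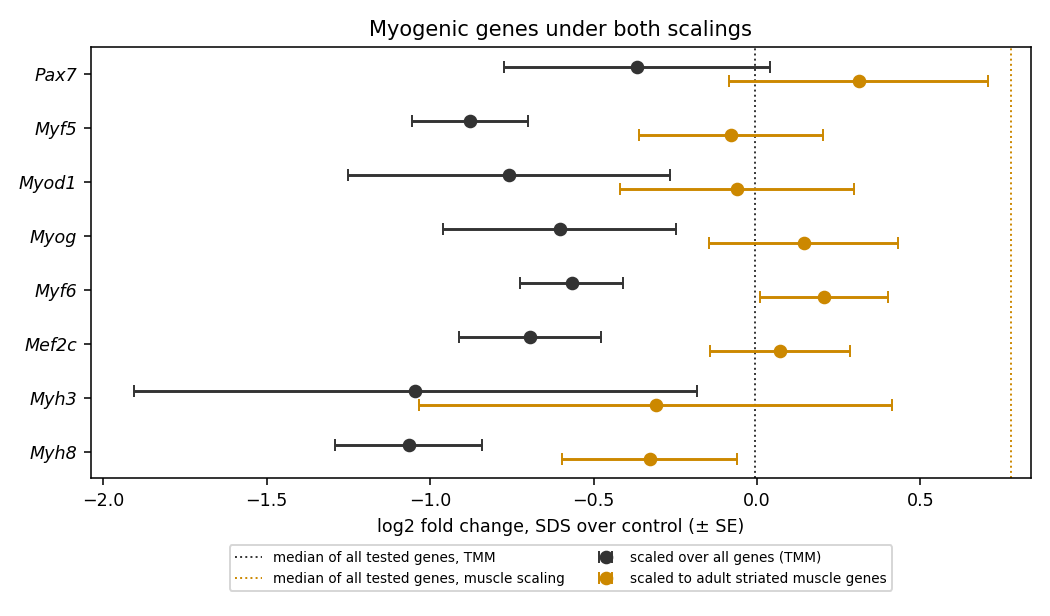
Log2 fold change of SDS over control (± SE) for the 8 genes, with libraries scaled over all genes by TMM (black) or to adult striated muscle genes (orange); dotted lines mark the median of all tested genes in each fit. The black points run from -1.07 to -0.37 and the orange points from -0.33 to 0.31.

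Other genes of the muscle stem cell programme were taken as lists by their role. Of 21 tested satellite cell and quiescence genes 12 were below 0, with a median of -0.12. In edgeR 0 of them passed, while 1 was lower and 1 higher at an unadjusted p under 0.05. DESeq2 passed 1 and limma-voom with quality weights 2, all as higher. The chemokine receptor Cxcr4, which leukocytes also express, had the smallest p there, at 2.58 ± 0.51 (log2, SE; edgeR adjusted p = 0.0538), and measured 10.2, 15.6 and 2.54 CPM in SDS against at most 2.21 CPM in a control. It passed in 6 of 20 other settings, among them DESeq2 (adjusted p = 7.8e-05) and limma-voom with quality weights (adjusted p = 0.00635). Spry1, a receptor tyrosine kinase inhibitor of quiescent satellite cells, stood at -0.61 ± 0.21 (edgeR adjusted p = 0.163). Pax3 was too low to be tested.

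Of 12 tested factors upstream of the myogenic genes 11 were below 0, with a median of -0.69. In edgeR 0 of them passed and 8 were lower at an unadjusted p under 0.05, while DESeq2 passed 6 as lower and limma-voom with quality weights 3. Eya4, a transcriptional coactivator of muscle development, stood at -0.57 ± 0.14 (SE, edgeR adjusted p = 0.0891).

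Among 24 tested partners and inhibitors of the myogenic factors 1 fell and 0 rose in edgeR, with a median of -0.29. DESeq2 passed 5 as lower and 1 as higher, and limma-voom with quality weights 8 as lower and 2 as higher. Of all tested genes 0.425% passed as lower in edgeR, 4.34% in DESeq2 and 4.76% with quality weights. The gene that fell in edgeR was Smyd1, a muscle histone methyltransferase and myosin chaperone partner. It measured 221, 218, 167, 205 and 165 CPM in controls and 117, 103 and 76.5 CPM in SDS. Its log2 fold change was -0.98 ± 0.18 (SE, edgeR adjusted p = 0.0470). Relative to adult striated muscle it was -0.22 and did not pass (edgeR adjusted p = 0.349). It kept its side of the threshold in 9 of 20 other settings, with adjusted p from 1.2e-05 to 0.349.

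Of 17 tested niche growth factors 1 fell and 0 rose in edgeR, with a median of -0.37. DESeq2 passed 1 as lower and limma-voom with quality weights 3. Fst, the follistatin that binds myostatin and activins, measured 14.3, 13.8, 12.1, 15.4 and 12.2 CPM in controls and 7.03, 8.08 and 5.34 CPM in SDS, with no overlap. Its log2 fold change was -0.99 ± 0.17 (SE, edgeR adjusted p = 0.0420); it passed in 10 of 20 other settings, with adjusted p from 3.0e-06 to 0.365, and stood at -0.23 relative to adult striated muscle.

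Of 10 tested fusion genes 8 were below 0, with a median of -0.38. In edgeR 0 of them passed, while 2 were lower and 1 higher at an unadjusted p under 0.05. DESeq2 passed 2 as lower, and limma-voom with quality weights 1 as lower and 1 as higher. The smallest p-values belonged to the caveolin Cav3 at -0.76 ± 0.20 and the membrane repair protein Trim72 at -0.77 ± 0.22 (log2, SE). Their adjusted p was 0.101 and 0.114 in edgeR, and 0.0109 and 0.0144 in DESeq2. Cav3 passed in 1 of 20 other settings and Trim72 in 3. The fusion proteins Mymk and Mymx were too low for the filter, at 0.215 ± 0.0608 and 0.230 ± 0.113 CPM (SD, n = 5) in controls and 0.272 ± 0.203 and 0.295 ± 0.222 CPM (SD, n = 3) in SDS. Of 24 tested early differentiation and denervation genes 19 were below 0, with a median of -0.46. In edgeR 0 of them passed and 8 were lower at an unadjusted p under 0.05. DESeq2 passed 5 as lower and limma-voom with quality weights 4. The stretch-responsive Ankrd1 stood at -1.84 ± 0.35 (edgeR adjusted p = 0.0514) and the fetal actin Actc1 at -0.67 ± 0.18 (edgeR adjusted p = 0.101; both SE). Ankrd1 passed in 8 of 20 other settings and Actc1 in 2, with DESeq2 adjusted p of 1.4e-05 and 0.00339.

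The genes most like each of the 8 were sought by Pearson correlation of log2 CPM over the 8 libraries, among 13548 genes of at least 1 CPM. The closest were Castor2 (0.968), Gcn1l1 (0.967) and Proser3 (0.962) for Pax7, Arhgap44 (0.976), Slit1 (0.975) and Pdgfa (0.972) for Myf5 and Dusp23 (0.992), Macrod1 (0.988) and Nfatc2 (0.984) for Myod1. For the later factors they were Arhgef6 (0.993), Zeb1 (0.988) and St6galnac6 (0.983) for Myog, Ptpn21 (0.983), Arl6ip5 (0.980) and Anxa6 (0.979) for Myf6 and Trak2 (0.996), Ugp2 (0.994) and Cfl2 (0.994) for Mef2c. For the myosins they were Xrcc2 (0.992), Ndnf (0.981) and Bloc1s6 (0.980) for Myh3 and Dele1 (0.993), Tmod1 (0.993) and R3hdm2 (0.992) for Myh8. Of the candidates, 0.413% had an r over 0.9 with Myf5 and 4.20% with Mef2c, over libraries that share their depth scaling and treatment groups. Of the 30 adult striated muscle genes, 11 had an r over 0.9 with Myh8, 10 with Mef2c, 9 each with Myf6 and Myod1, 4 with Myog, and 0 with Pax7, Myf5 or Myh3.

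Which library was left out mattered more for Pax7, Myod1, Myog and Myh3 than for Myf5, Myf6, Mef2c and Myh8. Leaving out each library in turn, the log2 fold change of Myf5 ran from -0.93 to -0.81 and that of Myh8 from -1.26 to -0.88. Myf6 ran from -0.66 to -0.44 and Mef2c from -0.86 to -0.53. Myod1 ran from -1.17 to -0.32, Myog from -0.95 to -0.27, Pax7 from -0.82 to 0.03 and Myh3 from -1.46 to -0.49. Without SDS library 3, Myf5 (edgeR adjusted p = 0.0392) and Myh8 (edgeR adjusted p = 0.0405) passed, in a fit where 1.94% of all tested genes passed as lower in SDS. Without control library 4 and SDS library 3, a choice made after seeing the data, the same 2 passed (edgeR adjusted p of 0.0349 and 0.0200), in a fit where 4.39% of all tested genes passed as lower in SDS.

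**Figure D5:**
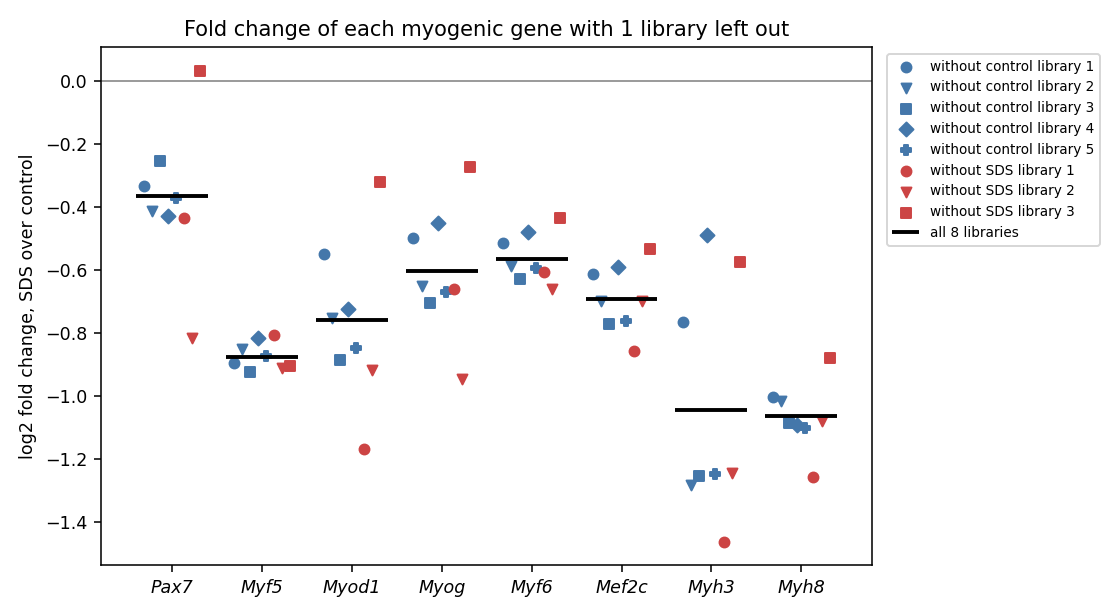
Log2 fold change of SDS over control for each of the 8 genes with 1 library left out (blue, a control; red, an SDS library; shape, its number); black lines are the values over all 8 libraries. The points of Myf5 lie between -0.93 and -0.81, and Pax7 reaches 0.03 without SDS library 3.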

How the data were processed

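The samples were 8 RNA libraries of whole esophagus, grouped by the treatment in the labels. What the authors deposited is a table of raw counts for each library. The submitters' processing notes name bcl2fastq, FastQC, STAR 2.6.1c, Subread and mm10; per the labels' protocols the NEBNext Ultra II kit was used after poly(A) selection. The annotation release and strand setting are not stated in these sources. Symbols were found for 48970 of 49315 identifiers.

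The count test was edgeR 4.0.16 in R 4.3.3: filterByExpr (minimum count 10, minimum total 15), TMM, and a two-sided robust quasi-likelihood fit on group, with p-values adjusted by Benjamini-Hochberg (threshold 0.05). All 8 myogenic genes were among the 17179 kept. Each SE is |log2 fold change| over √F; a prior count of 2 entered log2 CPM. The biological coefficient of variation was 29.3%. Ratios were compared by exact permutation. No 2 libraries of a group were copies (lowest chi-square per degree of freedom 24.1). The procedure was tested on simulated data. Alternatives were other scalings and filters, DESeq2 1.42.0, limma-voom (limma 3.58.1), a replicate block and leaving out libraries.

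The 8 genes and the lists were chosen with earlier results of these data known. The named genes are these 8, the passing genes of each muscle list (or its 2 smallest p-values), the adult myosins, Acta1, Ckm, and the 3 genes most correlated with each of the 8. Mymk, Mymx and Pax3 were named after their values were seen. One gene that this rule names is not reported here.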

Additional observations from a re-analysis of the deposited data

Results flagged for a closer look

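Myh13, an adult myosin of extraocular and laryngeal muscle, measured 3.47 CPM in control library 2 against 1.12 to 1.56 CPM in the other controls, a gap of 0.809 of the whole control range. This was 1 of 25 named genes examined in the same way, where chance gives about 1 in 20.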

How the results depend on the processing

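The number of genes past the threshold, 180 over all 8 libraries, depended on the processing: it was 9645 with scaling to adult striated muscle, 1599 with DESeq2, 1949 with limma-voom and sample quality weights, 2077 without control library 4 and SDS library 3, and 4 to 1222 with 1 library left out. Of the 8 myogenic genes, 4 passed with DESeq2, 3 with quality weights, 2 without control library 4 and SDS library 3, and 0 to 2 with 1 library left out. All 8 were below 0 in 17 of 20 alternatives. Leaving out 1 library moved Pax7 between -0.82 and 0.0308 and Myh7 between -1.84 and 1.02.

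Scaling to striated muscle turned the log2 fold changes of Pax7 (0.31), Myog (0.14), Myf6 (0.21), Mef2c (0.0715), Spry1 (0.15), Eya4 (0.19), Cav3 (0.0016), Actc1 (0.0541), Myh1 (0.15) and Myh7 (0.66). Myh1 and Myh7 are themselves among the genes used for this scaling, so their shift is partly built in. Quality weights turned Myh3 (0.0893), Myh2 (0.51) and Myh7 (1.62). Myh7 also turned with limma-voom (0.26) and without control library 4 and SDS library 3 (1.37). The cause was not tested.

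Replicate numbers gave no clear pairing of the libraries: same-numbered ones correlated at 0.44, -0.005 and 0.25. Numbers 1 and 3 matched their own number best, while number 2 matched number 3 best. So few libraries cannot decide whether the numbers pair them. With the number as a replicate block, over libraries 1 to 3 of each group, 0 genes passed and Myh7 stood at 1.00; without the block the same libraries gave 2 genes and Myh7 at 0.76. Pax7 and Myh3 in SDS library 3 rest on 14 and 19 counts, where counting error is widest. The filter removed none of the 8 genes, so the fit planned for such members was not needed to account for them. The same fit without a filter was run as 1 of the alternatives. There the lowest edgeR adjusted p of the 8 genes was 0.0557, for Myh8.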
